A study of Mus musculus with 12 samples.

Results

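The report concerns 32 genes of mitosis and of the passage from G2 into mitosis, in splenic B cells of mice that lost both Hnrnpa1 and Hnrnpa2b1. Members were taken by gene symbol, and all 32 were found in each of the 3 deposited count tables, which list 55359, 56691 and 55401 genes and hold untreated cells, stimulated cells and a set of additional wild-type cells in turn. All 32 passed the filter on low counts, so none was dropped from a test. They cover the cyclins of G2 and M phase with their kinase, the transcription factor Foxm1, the mitotic kinases, the chromosomal passenger complex, the spindle checkpoint, activators of protein destruction at anaphase, kinetochore proteins, spindle and cleavage proteins, and the chromosome proteins Top2a and Mki67.

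In a dividing cell these transcripts build up through S phase, peak in G2 and M phase and are lost in resting cells. The DREAM complex holds many of the promoters shut in resting cells through a short sequence called the cell cycle genes homology region (CHR), and MuvB joined to B-MYB and FOXM1 opens them again late in the cycle. Most B cells of the spleen are resting, and signals through the B cell receptor and CD40 bring them into the cycle.

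B cells were purified from spleen by depletion with CD43 beads, and poly(A) RNA was sequenced. Double knockout (DKO) cells lack Hnrnpa1 and Hnrnpa2b1, which code for nuclear RNA-binding proteins of splicing and RNA transport, after Cre-loxP recombination. Neither the promoter that drives Cre nor the age of the mice is stated in the labels. The groups were 3 DKO and 3 wild-type (WT) libraries of untreated cells, 2 DKO and 2 WT libraries of cells stimulated in culture with anti-IgM at 10 µg/mL and anti-CD40 at 1 µg/mL over 48 h, and 2 additional WT libraries of untreated cells. Whether replicates are separate animals is not stated, and a p-value here speaks only of the spread among these libraries.

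Depth was 15090953 to 21731893 gene counts per library. Hnrnpa1 had 76.7, 199 and 99.1 CPM (counts divided by the library total and scaled up) in untreated DKO cells, against 741, 720 and 718 CPM in untreated WT cells, and 252 and 238 CPM in stimulated DKO cells, against 1738 and 1728 CPM in stimulated WT cells. Hnrnpa2b1 had 335, 619 and 387 CPM in untreated DKO cells, against 2020, 1782 and 1958 CPM in untreated WT cells. In stimulated cells it had 330 and 420 CPM in DKO, against 1824 and 1842 CPM in WT. Hnrnpa2b1 was thus also lower in each of the 5 DKO libraries than in any WT library, and counts of both genes remained in DKO cells. Markers of B cells summed to 2767 CPM or more in every library and none was at 0, while summed T cell markers were at most 5.4 CPM. The genes Xist and Y-linked genes mark 2 libraries as female, DKO number 1 and WT number 2 of the untreated cells, and the other 10 as male. The stimulated DKO libraries differed from each other more than the libraries of any other group, with a chi-square of 49.5 per degree of freedom over genes, against 7.63 to 25.2 for the other pairs within a group.

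The first comparison asked whether untreated DKO and WT B cells differ in mitotic transcripts. Every one of the 32 members had a negative log2 fold change, and 8 fell past the threshold: Plk1, Ccnb1, Cdc20, Ube2c, Cenpa, Foxm1, Prc1 and Ccnb2. None rose. The 8 are 25.0% of the members, beside 10.6% of all 13561 tested genes that passed as lower and 8.81% as higher (edgeR quasi-likelihood test, Benjamini-Hochberg adjusted p under 0.05 over all tested genes). The median log2 change of the members was -0.67, against -0.01 for all tested genes. An unadjusted edgeR p under 0.05 was found for 17 of the 32 members, beside 4700 of the 13561 tested genes. In bulk RNA, fewer cycling cells and less RNA per cycling cell cannot be told apart.

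Together the 32 genes took 0.0952%, 0.162% and 0.166% of all gene counts in DKO cells, against 0.281%, 0.143% and 0.231% in WT cells, for libraries numbered 1 to 3. The groups overlapped in this sum, because the low WT library, number 2, lay under DKO libraries 2 and 3. The levels below are CPM scaled by the trimmed mean of M values (TMM) over the 10 numbered and unnumbered libraries of DKO and WT cells, untreated and stimulated, so that they can be set side by side.

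**Figure D1:**
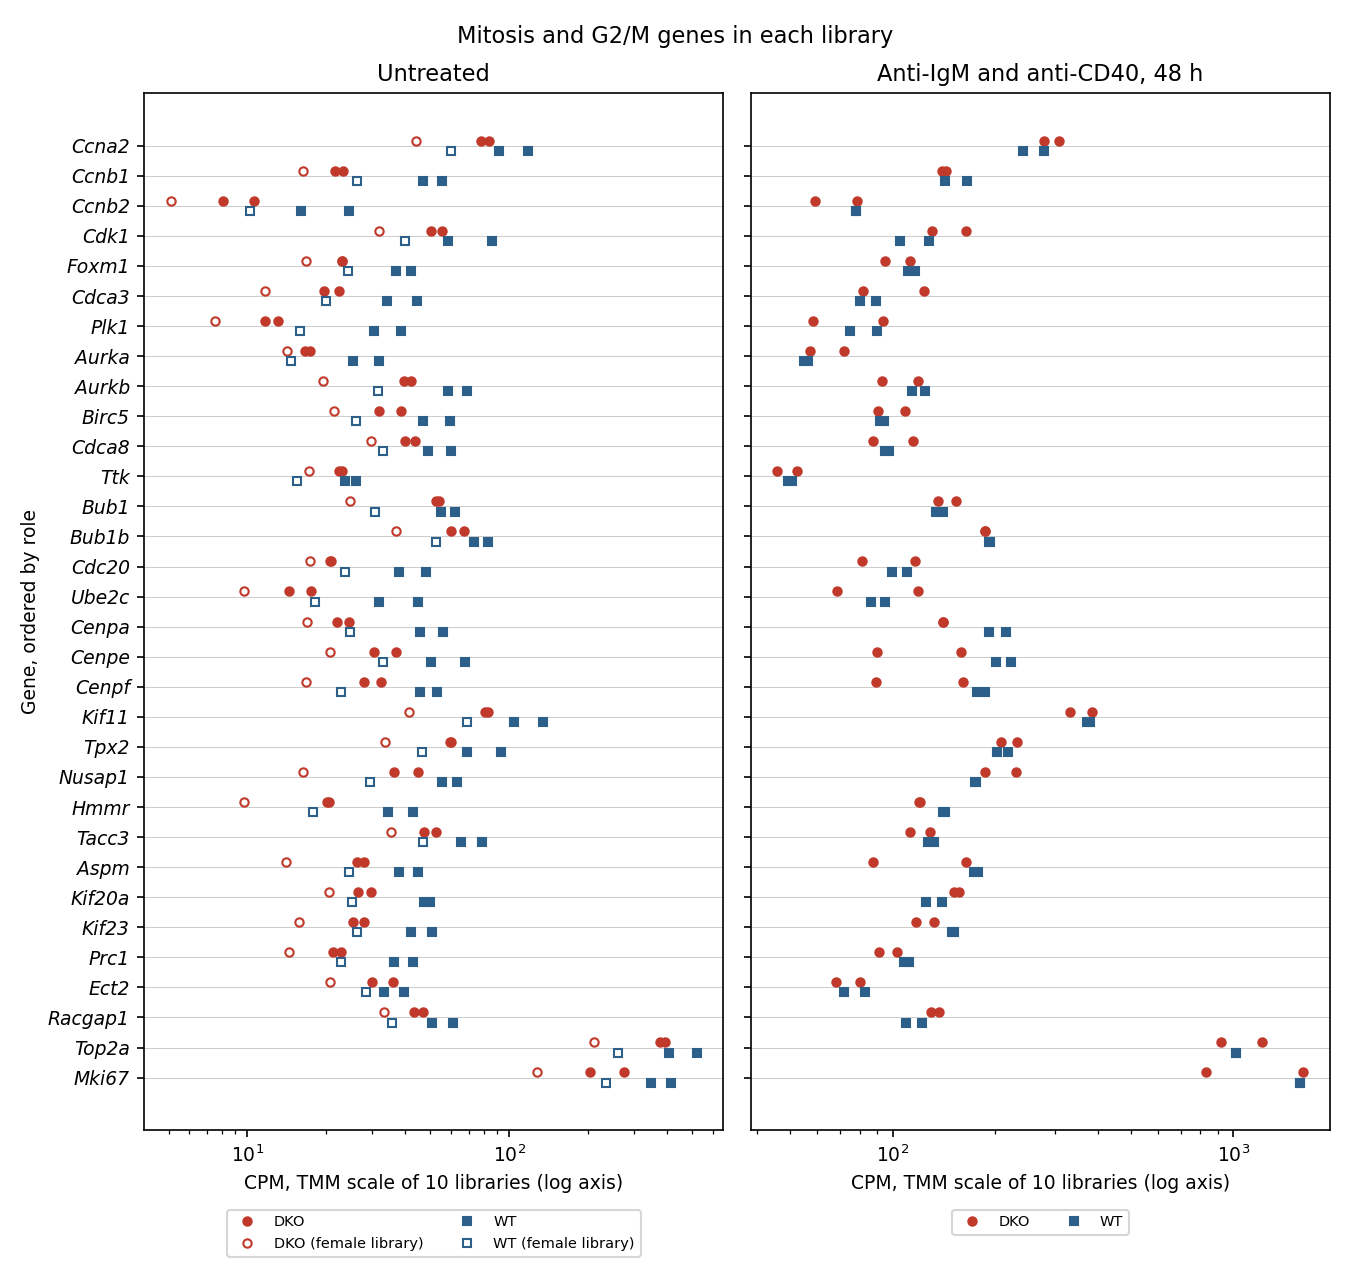
Level of each of the 32 genes in each library, as CPM on the TMM scale (log axis), with DKO libraries as red circles above WT libraries as blue squares in each row; the left panel shows untreated and the right panel stimulated cells, the axes of the panels cover different ranges, and open symbols are the libraries that read as female. In untreated cells the open symbol is the lowest of its genotype in every row, and in stimulated cells all points lie above the untreated ones of the same gene.

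Among the cyclins and their kinase, Ccnb1 and Ccnb2 passed. Ccnb1 (ENSMUSG00000041431; GRCm39 chromosome 13, 100915158 to 100923078, minus strand) codes for cyclin B1, which activates CDK1 at mitotic entry, and had 16.3, 23.1 and 21.7 CPM in DKO cells, against 55.2, 26.2 and 47.0 CPM in WT cells. No DKO library reached the lowest WT library, and the log2 change was -1.09 ± 0.25 (standard error; edgeR adjusted p = 0.0194). Ccnb2 (ENSMUSG00000032218; chromosome 9, 70314974 to 70328829, minus strand), the second B-type cyclin, had 5.09, 10.6 and 8.06 CPM in DKO cells, against 24.3, 10.3 and 16.0 CPM in WT cells. DKO library 2 lay just above WT library 2, so these groups touched, and the change was -1.11 ± 0.34 (edgeR adjusted p = 0.0494). A copy listed as Ccnb2-ps had 76, 106 and 78 counts in DKO cells, against 69, 62 and 87 in WT cells, and since the counting could split reads between the copies, the values of Ccnb2 are uncertain. Ccna2, the cyclin of S and G2 phase, and Cdk1 itself did not pass, with log2 changes of -0.40 ± 0.28 (edgeR adjusted p = 0.337) and -0.44 ± 0.28 (edgeR adjusted p = 0.297).

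Foxm1 (ENSMUSG00000001517; chromosome 6, 128339930 to 128353109, plus strand), the transcription factor of the late cell cycle genes, had 16.7, 23.1 and 23.1 CPM in DKO cells, against 42.1, 24.3 and 37.0 CPM in WT cells. All DKO libraries lay under all WT libraries, though DKO 2 and 3 came close to WT library 2. Its log2 change was -0.73 ± 0.21 (edgeR adjusted p = 0.0385). Cdca3, which takes part in the destruction of the mitotic inhibitor WEE1, changed by -0.89 ± 0.30 and did not pass (edgeR adjusted p = 0.0696).

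The kinase gene Plk1 had the largest change of the 32. Plk1 (ENSMUSG00000030867; chromosome 7, 121758662 to 121769096, plus strand) acts in mitotic entry, spindle assembly and cytokinesis. It had 7.54, 13.1 and 11.7 CPM in DKO cells, against 38.7, 15.9 and 30.3 CPM in WT cells, without overlap. That is a log2 change of -1.41 ± 0.32 (edgeR adjusted p = 0.0167), or 0.377 times the WT level. Aurka, the kinase of centrosome maturation, had a change of -0.60 ± 0.25 (edgeR adjusted p = 0.122).

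Both members among the activators of protein destruction at anaphase fell. Cdc20 (ENSMUSG00000006398; chromosome 4, 118290098 to 118294549, minus strand), which switches on the anaphase-promoting complex, had 17.4, 20.9 and 20.7 CPM in DKO cells, against 48.0, 23.6 and 37.8 CPM in WT cells. Ube2c (ENSMUSG00000001403; chromosome 2, 164611818 to 164620742, plus strand) is the ubiquitin-conjugating enzyme of that complex and had 9.74, 17.5 and 14.5 CPM in DKO cells, against 44.7, 18.1 and 31.8 CPM in WT cells. Neither gene overlapped between the genotypes, although the highest DKO library of Ube2c was just under the lowest WT library. The changes were -0.90 ± 0.23 for Cdc20 (edgeR adjusted p = 0.0249) and -1.20 ± 0.32 for Ube2c (edgeR adjusted p = 0.0306). Of 15 further genes of the anaphase-promoting complex, which are its subunits and the activator Fzr1, none passed in either direction, and their median was -0.07. The 4 of these with the smallest p were Anapc16 (0.19 ± 0.08), Anapc7 (0.16 ± 0.07), Fzr1 (-0.20 ± 0.09) and Anapc1 (-0.17 ± 0.10), on the log2 scale.

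Of the 3 kinetochore and centromere genes, Cenpa passed. Cenpa (ENSMUSG00000029177; chromosome 5, 30824121 to 30832174, plus strand), the histone H3 variant that marks centromeres and is laid down after mitosis, had 16.96, 24.3 and 21.9 CPM in DKO cells, against 56.1, 24.7 and 45.8 CPM in WT cells. DKO library 2 and WT library 2 were nearly level, and the change was -1.02 ± 0.27 (edgeR adjusted p = 0.0308). Cenpe, the kinesin that moves chromosomes to the spindle equator, changed by -0.79 ± 0.27 (edgeR adjusted p = 0.0683), and Cenpf, a kinetochore protein of G2 and M phase, by -0.67 ± 0.31 (edgeR adjusted p = 0.165).

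Prc1 (ENSMUSG00000038943; chromosome 7, 79944198 to 79966007, plus strand), which bundles microtubules in the spindle midzone, was the one gene of midzone and cytokinesis to pass. It had 14.4, 21.3 and 22.9 CPM in DKO cells, against 43.1, 22.7 and 36.4 CPM in WT cells, and the change was -0.82 ± 0.24 (edgeR adjusted p = 0.0456). DKO library 3 lay above WT library 2. Kif23 and Racgap1, which form the centralspindlin complex, changed by -0.80 ± 0.26 and -0.27 ± 0.19, Kif20a, a midzone kinesin, by -0.69 ± 0.25, and Ect2, the exchange factor that starts the cleavage furrow, by -0.24 ± 0.20, and none of them passed (edgeR adjusted p of 0.061, 0.359, 0.0816 and 0.415).

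The other groups held no gene past the threshold. The 6 spindle assembly genes ranged from -0.93 for Hmmr to -0.47 for Tpx2 on the log2 scale, with Kif11, Nusap1, Tacc3 and Aspm between. The passenger complex genes Aurkb, Birc5 and Cdca8 had -0.66, -0.55 and -0.34. The 3 checkpoint genes had -0.36 (Bub1b), -0.19 (Bub1) and -0.07 (Ttk), and the changes of Bub1 and Ttk were the smallest of all members. Top2a, the topoisomerase that untangles sister chromatids, had 211, 376 and 393 CPM in DKO cells, against 522, 261 and 407 CPM in WT cells, a change of -0.29 ± 0.28. Mki67, the proliferation antigen that coats mitotic chromosomes, had 128, 204 and 274 CPM in DKO cells, against 417, 234 and 349 CPM in WT cells, a change of -0.74 ± 0.27. Neither passed (edgeR adjusted p = 0.488 and 0.0885).

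In 6 members every DKO library lay under every WT library: Ccnb1, Foxm1, Plk1, Cdc20, Ube2c and Cenpa. No member had the DKO libraries above. Over all tested genes, 20% had DKO lower and 19.1% had DKO higher without overlap, so the 6 of 32 are near the background.

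**Figure D2:**
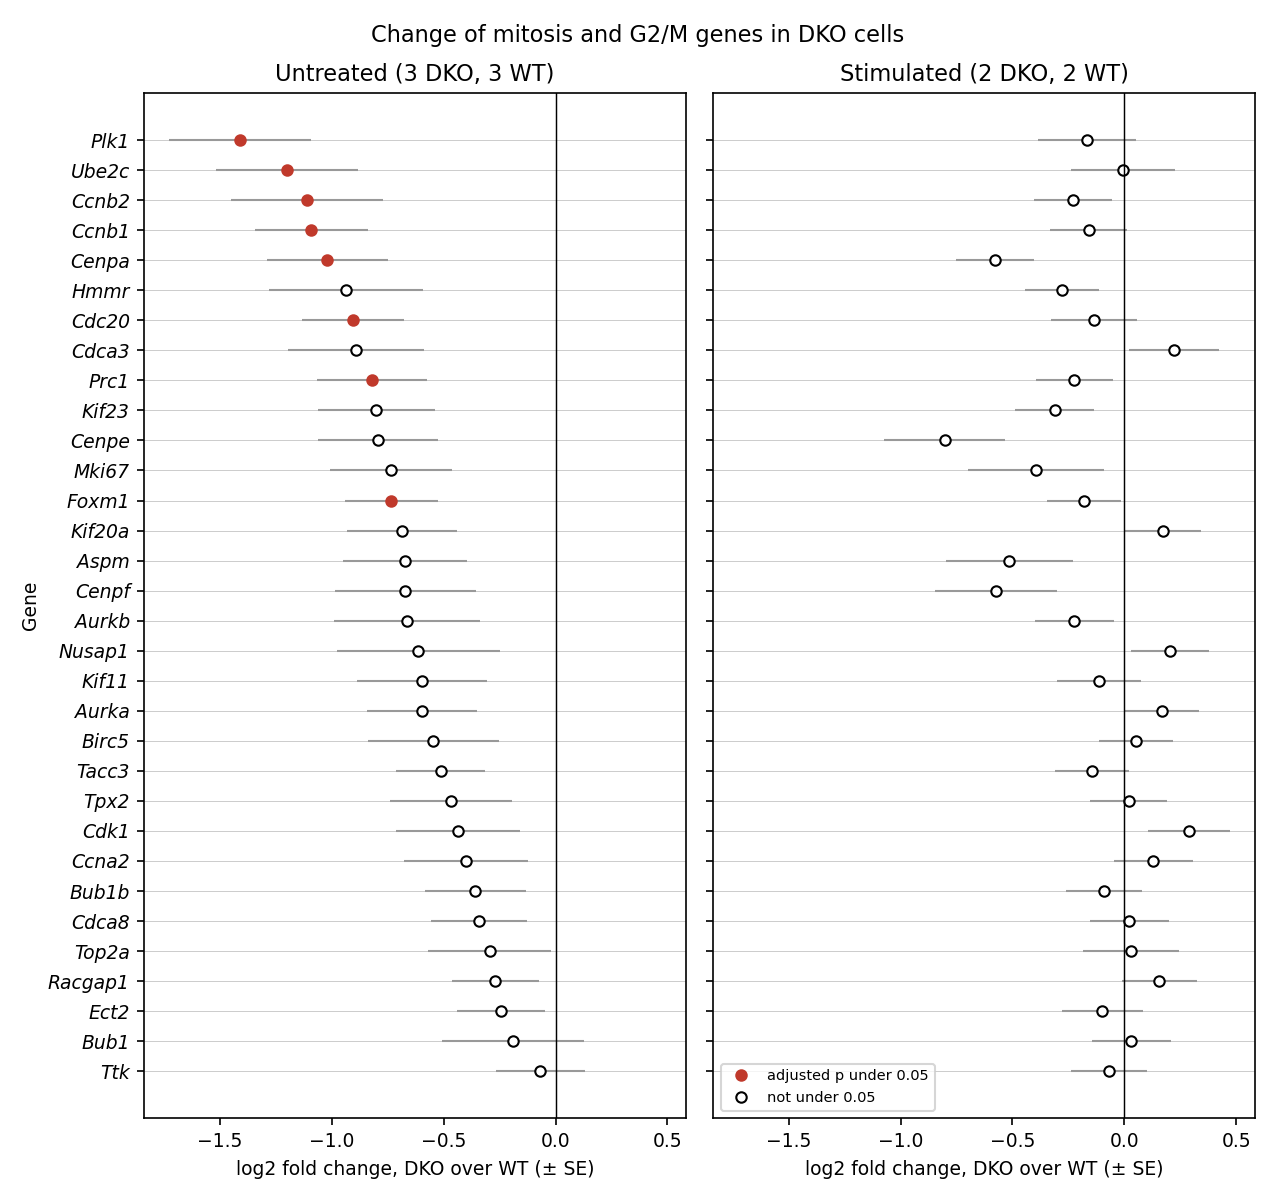
Log2 fold change of DKO over WT cells with its standard error for the 32 genes, in untreated cells on the left and stimulated cells on the right, in the order of the untreated change; filled red points have an adjusted p under 0.05. All 32 points on the left are under 0 and 8 are filled, while on the right 12 lie above 0, 20 under it and none is filled.

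Promoter windows show what the members share in sequence outside the counts. RefSeq windows on GRCm38.p6, from 250 bases before to 50 bases after the annotated start, were found for 27 of the 32 members; Ccna2, Foxm1, Aurkb, Tpx2 and Kif20a had none in the table used. The CHR was searched as TTTGAA or TTCGAA and the CCAAT box, which binds the factor NF-Y, as CCAAT, both on either strand. A CHR match was present in 22 of 27 members (81.5%), beside 21.7% of 27025 genes with a window, and a CCAAT match in 24 (88.9%), beside 41.1%. Both stood together in 22 members (81.5%), beside 8.61% of all genes. A CHR and a CCAAT match overlapped in 1 case, in Cdca8.

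The 6 windows given here belong to the genes with the smallest p among those that fell in untreated DKO cells and hold a CHR match, written 5′ to 3′ along the gene with CHR and CCAAT matches of either strand in capitals (TTCAAA and ATTGG are the reverse forms).
Plk1 (chr7:122159185-122159484, plus strand): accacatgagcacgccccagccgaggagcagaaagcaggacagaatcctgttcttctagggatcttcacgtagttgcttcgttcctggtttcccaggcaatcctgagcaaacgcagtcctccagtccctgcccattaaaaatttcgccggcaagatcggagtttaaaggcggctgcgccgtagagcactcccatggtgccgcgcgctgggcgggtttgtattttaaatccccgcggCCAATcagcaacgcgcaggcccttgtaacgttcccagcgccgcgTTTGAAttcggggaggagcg
Cdc20 (chr4:118437294-118437593, minus strand): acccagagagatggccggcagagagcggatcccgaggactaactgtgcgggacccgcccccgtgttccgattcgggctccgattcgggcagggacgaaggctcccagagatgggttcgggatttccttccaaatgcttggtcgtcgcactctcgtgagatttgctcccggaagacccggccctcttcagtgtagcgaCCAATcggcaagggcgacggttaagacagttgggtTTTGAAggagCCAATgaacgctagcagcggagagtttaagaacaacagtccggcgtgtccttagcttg
Ube2c (chr2:164769679-164769978, plus strand): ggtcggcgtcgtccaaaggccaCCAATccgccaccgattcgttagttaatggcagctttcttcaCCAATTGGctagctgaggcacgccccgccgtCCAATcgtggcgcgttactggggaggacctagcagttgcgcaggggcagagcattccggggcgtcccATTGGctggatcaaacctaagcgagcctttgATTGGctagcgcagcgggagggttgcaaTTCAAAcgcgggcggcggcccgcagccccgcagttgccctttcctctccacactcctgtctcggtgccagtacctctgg
Cenpa (chr5:30666636-30666935, plus strand): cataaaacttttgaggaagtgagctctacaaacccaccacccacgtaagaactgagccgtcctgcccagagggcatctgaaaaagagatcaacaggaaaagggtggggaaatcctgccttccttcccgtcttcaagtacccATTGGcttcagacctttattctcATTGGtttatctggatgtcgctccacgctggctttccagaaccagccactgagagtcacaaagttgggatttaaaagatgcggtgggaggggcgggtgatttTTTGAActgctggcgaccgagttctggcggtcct
Prc1 (chr7:80294201-80294500, plus strand, the first of 2 windows of this gene): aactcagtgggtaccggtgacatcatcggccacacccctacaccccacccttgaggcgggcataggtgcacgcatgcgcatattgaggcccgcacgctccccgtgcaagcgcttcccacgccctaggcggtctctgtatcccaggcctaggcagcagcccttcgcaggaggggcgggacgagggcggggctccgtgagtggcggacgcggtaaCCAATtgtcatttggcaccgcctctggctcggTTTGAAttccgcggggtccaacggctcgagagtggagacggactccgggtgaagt
Ccnb2 (chr9:70421505-70421804, minus strand): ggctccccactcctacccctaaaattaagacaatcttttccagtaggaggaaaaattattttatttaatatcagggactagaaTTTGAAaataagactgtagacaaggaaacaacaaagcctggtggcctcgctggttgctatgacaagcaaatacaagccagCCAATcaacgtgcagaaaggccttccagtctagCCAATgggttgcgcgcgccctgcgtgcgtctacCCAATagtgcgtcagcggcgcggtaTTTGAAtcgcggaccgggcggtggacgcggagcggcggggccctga
In Plk1 the CHR match begins 30 bases after the annotated start and a CCAAT match 14 bases before it. Cdc20, Prc1 and Ube2c have their CHR match before the start, at -18, -5 and -29, and Cenpa after it, at 16. Ccnb2 has one CHR match at 4 and another far upstream at -167, with 3 CCAAT matches between, and Ube2c has the most CCAAT matches of these 6, with 6. Ccnb1, which fell too, has CCAAT but no CHR match in its window, and Birc5, Cenpe, Nusap1 and Tacc3 also lack a CHR match. The log2 changes of these 5, from -1.09 to -0.51, lie inside the range of the 22 genes with a match. A match is only the presence of these letters.

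**Figure D3:**
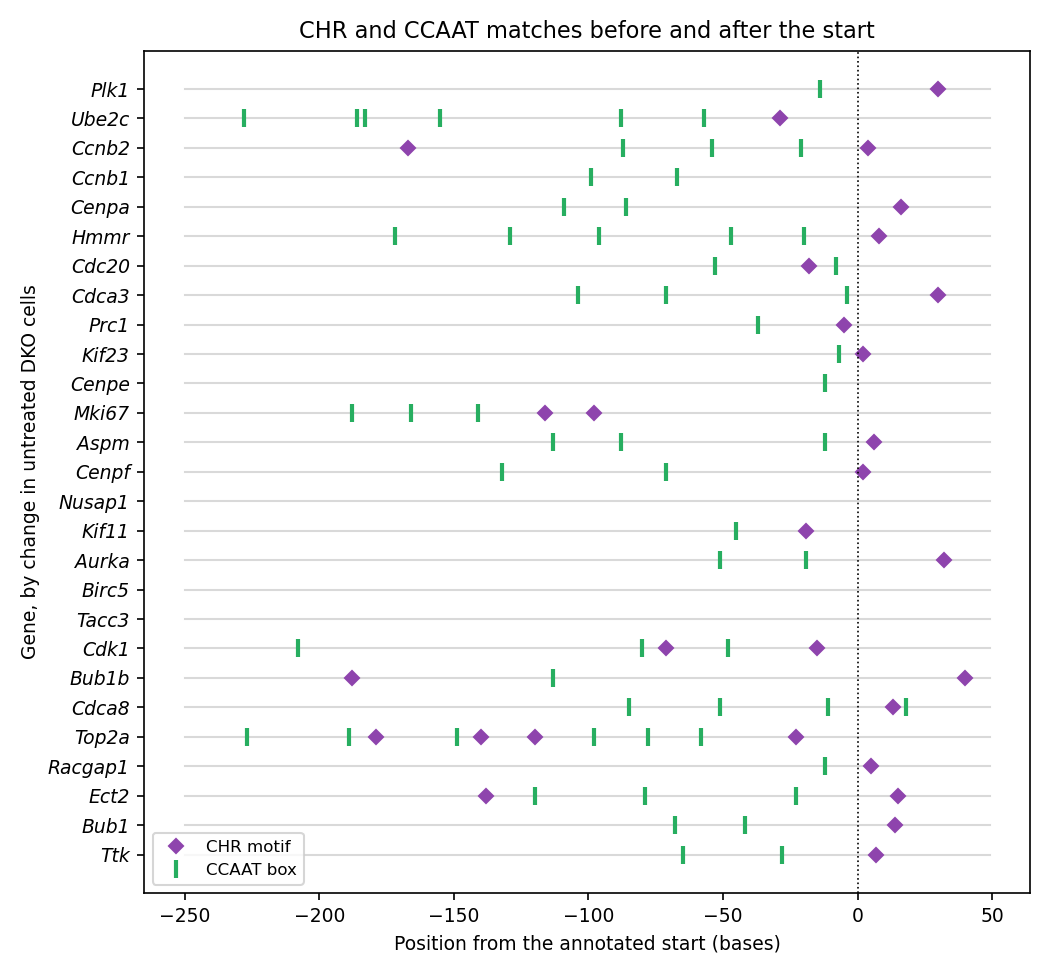
Position of CHR matches (purple diamonds) and CCAAT matches (green bars), counted in bases from the annotated start (dotted line), in the windows of the 27 members with one, ordered from the most negative log2 change in untreated DKO cells at the top; for genes with several windows the first is drawn. CHR matches stand in 22 of the 27 genes, and Nusap1, Birc5 and Tacc3 have neither motif.

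The spread within each genotype was as large as the difference between genotypes. WT library 2 was the lowest WT library and DKO library 1 the lowest DKO library in 32 of 32 members, and both read as female; WT library 1 was the highest WT library in 32 of 32. The median member was higher in WT library 1 than in WT library 2 by 1.01 on the log2 scale, which is more than the median change of genotype. In DKO cells, the median log2 ratio of library 1 over library 2 was -0.76. Libraries of the same sex were therefore set beside each other. DKO libraries 2 and 3 lay under WT libraries 1 and 3, all male, in 31 of 32 members, the exception being Ect2. DKO library 1 lay under WT library 2, the female pair, in 31 of 32, the exception being Ttk. These orders were not counted over all tested genes, so the counts have no background share beside them and are descriptions only.

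With a term for sex in the fit, 28 members fell and none rose, beside 17.7% of all genes that were then lower. Ttk, Bub1, Ect2 and Racgap1 did not pass. In the 4 male libraries alone 27 members fell and none rose, beside 13.1% of all genes, and Top2a joined those that did not pass. Plk1 then had a change of -1.48 ± 0.15 (edgeR adjusted p = 0.000144, 2 libraries a group), and Ttk one of -0.13 ± 0.12 (edgeR adjusted p = 0.461). With 1 female library a genotype, sex and any other property of those 2 libraries cannot be told apart.

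Leaving out a library changed the count of the first fit. The share of all genes called in either direction moved with it, against 19.5% with all 6 libraries. No member passed without DKO library 3 (8.21% of all genes) or without WT library 3 (6.67%), and Plk1 alone passed without DKO library 1 (15.4%) or without WT library 1 (12.3%). The count was 5 without DKO library 2 (13.7%) and 22 without WT library 2 (19.9%). The members were high or low together from library to library, so their 32 directions are not independent results.

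The rest of the cell division programme was read from further lists. Among 31 further kinetochore and centromere genes 2 fell and none rose, with a median log2 change of -0.20. These were Zwint (-0.35 ± 0.07), a kinetochore linker, and Cenpt (-0.51 ± 0.13), a DNA-bound centromere protein (edgeR adjusted p = 0.0103 and 0.0227); next by p were Bub3 (0.18 ± 0.07) and Spc25 (-0.52 ± 0.25). Of 22 further spindle and cytokinesis genes, Numa1 (-0.37 ± 0.08) and Ckap5 (-0.28 ± 0.08), both of which organise spindle microtubules, fell (edgeR adjusted p = 0.0115 and 0.0402). Psrc1, a spindle protein whose gene is a target of p53, rose by 0.94 ± 0.17 (edgeR adjusted p = 0.00701), and the kinesin gene Kif15 had -0.98 ± 0.31 (edgeR adjusted p = 0.0583).

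None of 12 condensin, cohesion and separase genes passed, and 11 of them were negative with a median of -0.30; Pttg1, Ncapg, Cdca5 and Ncapd2 had the smallest p, with -0.41, -0.63, -0.48 and -0.41. None of 18 other regulators of mitotic entry and exit passed, with a median of -0.16 and Cdkn3 (-1.16), Nek2 (-0.81), Mastl (-0.71) and Ccnf (-0.41) first by p. E2f6, a repressor of the E2F family, was the only one of 18 tested MuvB, B-MYB, pocket protein and E2F genes to pass, with 0.28 ± 0.08 (edgeR adjusted p = 0.0412), and E2f2 (-0.58), E2f8 (-0.51) and Mybl2 (0.45) followed.

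Genes of DNA replication and the G1 to S step were read as a list of 40. Of these, Pold1 (0.43 ± 0.12), Mcm6 (0.48 ± 0.13) and Cdt1 (0.27 ± 0.08) rose and Tyms (-0.62 ± 0.18) fell (edgeR adjusted p = 0.0321, 0.0365, 0.0457 and 0.0388), and the median was 0.18 with 26 of 40 positive. The 3 that rose are a smaller share of the list than the 8.81% of all genes that rose, and the difference between this list and the mitotic genes was not tested. Their summed plain CPM was 5173, 6987 and 7011 in DKO cells, against 6832, 5055 and 6137 in WT cells. Both female libraries were again the lowest of their genotype, but the groups overlapped. Among 6 tested inhibitors of cyclin-dependent kinases, Cdkn2d (-1.07 ± 0.23) and Cdkn2b (-1.11 ± 0.33) fell (edgeR adjusted p = 0.0145 and 0.0468), and Cdkn2a (-0.83 ± 0.40) and Cdkn1a (-0.27 ± 0.16) did not pass. Cdkn2b rests on few counts, with 1.29, 0.82 and 0.6 CPM in DKO cells, against 1.91, 1.91 and 2.01 CPM in WT cells.

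Markers of other cells that divide or that the purification could leave were read beside these values, as summed plain CPM. The B cell markers themselves summed to 2767 to 3197 in untreated DKO cells, against 3443 to 3943 in untreated WT cells, with 2 of 7 lower past the threshold. B1 cell markers (Cd5, Bhlhe41, Zbtb32 and Cd9, none at 0) summed to 49.2 to 61.3 in untreated DKO cells, against 93.8 to 114 in untreated WT cells, with 3 of 4 lower past the threshold; CD43 beads would take out many B1 cells. Of the red cell precursor markers 3 globin genes could be tested, and these summed to 1.2, 4.58 and 3.84 in DKO libraries 1 to 3, against 30.8, 1.16 and 7.66 in WT libraries 1 to 3. The order of the WT libraries was that of the summed mitotic genes, and DKO library 1 was again the lowest DKO library. DKO libraries 2 and 3 stood in the reverse order, with 0.162% and 0.166% of counts for the mitotic genes. Hbb-bs had a log2 change of -2.18 ± 0.94, Hba-a1 of -2 ± 0.997 and Hbb-bt of -1.18 ± 0.75, and none passed (edgeR adjusted p = 0.135, 0.188 and 0.298); the globin genes have near-identical copies, so their counts are uncertain. Plasma cell markers summed to 738 to 830 in DKO cells, against 749 to 873 in WT cells, with 2 of 6 lower and Tnfrsf17 at 0 in all but WT library 1. Germinal centre markers summed to 100.25 to 130 in DKO cells, against 106 to 135 in WT cells, with 1 of 6 lower, and markers of pro-B and pre-B cells stayed under 8 CPM in both. Myeloid markers summed to 38.0 to 69.7 in DKO cells, against 66.8 to 77.6 in WT cells, with 1 of 4 lower, and NK cell markers to at most 3.91. Their part in the change of the mitotic genes was not tested.

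Stimulation raised all 32 members in both genotypes. After 48 h with anti-IgM and anti-CD40 every stimulated library lay above every untreated library in 32 of 32 members. The share of all genes that separate in this way was not computed. In DKO cells all 32 rose past the threshold, beside 16.2% of all 15006 tested genes, by a median of 2.29 on the log2 scale and a range of 1.23 (Ttk) to 3.12 (Ccnb2). In WT cells all 32 rose as well, beside 17.8% of all genes, by a median of 1.53 and a range of 0.92 (Cdk1) to 2.29 (Aspm). Median changes of all genes were -0.01 and -0.02. Stimulated and untreated cells differ also in culture and in the deposited table, and these cannot be told apart from the stimulus. All stimulated libraries read as male, while the untreated DKO and numbered untreated WT libraries held 1 each that read as female. Without those libraries all 32 still rose, by medians of 2.08 in DKO and 1.32 in WT cells. The shares of all genes called in either direction were then 27.5% and 36.7%.

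**Figure D4:**
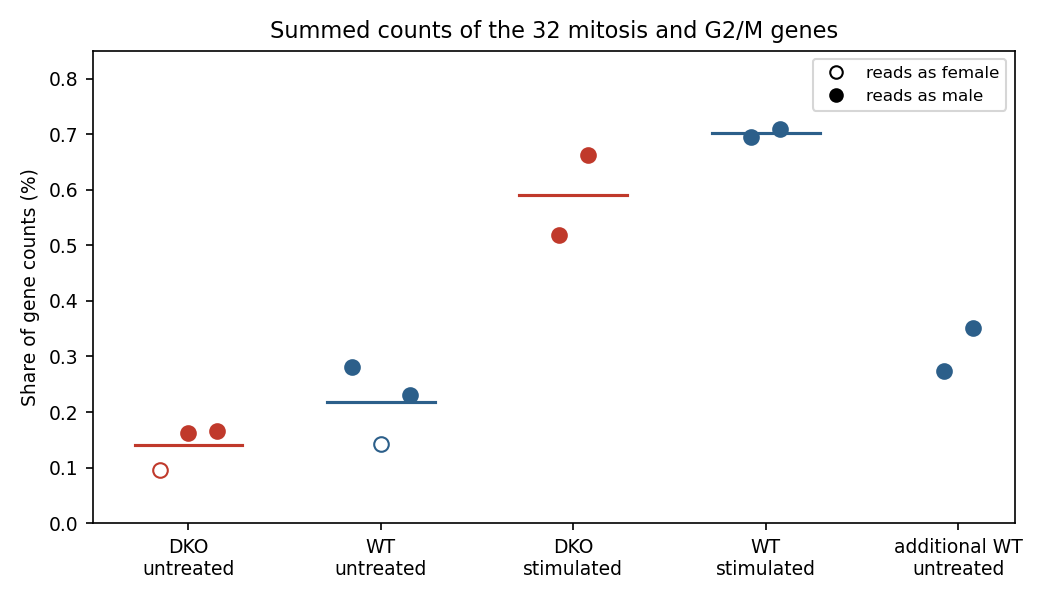
Summed counts of the 32 genes as a percentage of all gene counts in each library, by group, with a line at the group mean; open circles read as female, and the additional WT libraries have no mean line since their counts come from another annotation. Stimulated DKO libraries reach 0.519% and 0.663%, against 0.695% and 0.710% in stimulated WT libraries, and the numbered untreated libraries lie at or under 0.281%.

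Cyclin B1 came first by p in DKO cells and the centromere histone in WT cells. In DKO cells Ccnb1 had 144 and 140 CPM in stimulated libraries, against 16.3, 23.1 and 21.7 CPM in untreated ones, a log2 change of 2.80 ± 0.24 (edgeR adjusted p = 4.31e-06). By smallest p it was followed by Foxm1 (2.30), Kif20a (2.59), Cenpa (2.74), Prc1 (2.31), Ccnb2 (3.12), Kif23 (2.44), Cdc20 (2.33), Hmmr (2.84) and Racgap1 (1.69). In WT cells Cenpa came first, with 191 and 215 CPM in stimulated libraries, against 56.1, 24.7 and 45.8 CPM in untreated ones, a change of 2.26 ± 0.25 (edgeR adjusted p = 2.34e-05). It was followed by Foxm1 (1.71), Kif23 (1.92), Ccnb1 (1.84), Aspm (2.29), Prc1 (1.68), Ccnb2 (2.2), Kif20a (1.70), Cenpe (2.07) and Mki67 (2.23).

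The second comparison asked whether DKO and WT cells differ once stimulated. None of the 32 members passed the threshold, beside 5.09% of all 14430 tested genes that passed as higher and 6.17% as lower (edgeR quasi-likelihood test). Of the members, 12 had a positive and 20 a negative log2 change, and the median was -0.11, against -0.03 for all genes. An unadjusted edgeR p under 0.05 was found for 2 of the 32 members, beside 4348 of the 14430 tested genes. DESeq2 called 2 members, both lower, beside 13.7% of all genes in either direction. Cenpa was the closest to passing, with 141 and 140 CPM in stimulated DKO cells, against 191 and 215 CPM in stimulated WT cells. Both DKO libraries lay under both WT libraries, with a change of -0.58 ± 0.17 (edgeR adjusted p = 0.0624). Cenpe had 89.9 and 158 CPM in DKO cells, against 200.1 and 223 CPM in WT cells, a change of -0.80 ± 0.27 (edgeR adjusted p = 0.0853). Next by p were Cenpf (-0.57 ± 0.27), Aspm (-0.52 ± 0.28), Kif23 (-0.31 ± 0.18) and Hmmr (-0.28 ± 0.17), on the log2 scale, and Mki67 had -0.40 ± 0.30.

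Of the 8 genes that fell in untreated cells, none passed here. Plk1 had 93.5 and 58.5 CPM in stimulated DKO cells, against 89.8 and 74.7 CPM in stimulated WT cells, and changed by -0.17 ± 0.22. Ube2c had 119 and 68.5 CPM, against 94.7 and 86.2 CPM, and changed by -0.01 ± 0.23. In both genes the WT libraries lay between the 2 DKO libraries on this scale. For Plk1 this depends on the scaling, since in the fit of stimulated cells WT number 1 (89.5 CPM) lay above DKO number 1 (88.0 CPM). Ccnb1, Ccnb2, Cdc20, Foxm1 and Prc1 changed by -0.16 ± 0.17, -0.23 ± 0.18, -0.14 ± 0.19, -0.18 ± 0.17 and -0.22 ± 0.17. The most positive members were Cdk1 with 0.29 ± 0.18 and Cdca3 with 0.22 ± 0.20. With 2 libraries a group, a change that does not pass is not shown to be absent. Here B1 cell markers summed to 47.5 and 52.2 plain CPM in DKO cells, against 87.0 and 77.2 in WT cells, with 2 of 4 lower, and the 3 globin genes summed to 18.4 and 7.92 in DKO cells, against 3.74 and 13.5 in WT cells; their part was not tested.

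The 2 stimulated DKO libraries did not show one level of these genes but a tilt with exonic gene length. The log2 ratio of DKO number 1 over DKO number 2 correlated with the log of exonic gene length across the 32 members with a Pearson r of -0.854 and a Spearman rho of -0.845, given as a description, since all points share the same 2 libraries. Over all 14430 tested genes the values were -0.209 and -0.339. All 7 members shorter than 3 kb were higher in DKO number 1, by a median of 0.42, and none of the 9 longer than 6 kb was, with a median of -0.49. The 16 between had a median of 0.01.

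Mki67 had 832 and 1605 CPM in stimulated DKO cells, against 1566 and 1571 CPM in stimulated WT cells. DKO number 2 was level with WT and DKO number 1 lay far under it. The log2 ratio of the DKO libraries was -1.04 for Mki67, -0.99 for Aspm, -0.92 for Cenpf and -0.90 for Cenpe, all long genes, and 0.70 for Ube2c and 0.59 for Plk1, both short. For WT number 1 over the unnumbered WT library the same correlation was -0.45 (Spearman -0.489) over members and 0.03 over all genes. A tilt was also present in untreated cells. For DKO library 2 over library 3 the correlation was -0.615 (Spearman -0.603) over members and -0.138 over all genes. In the other untreated pairs within a genotype it ran from -0.393 to 0.136 over members.

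**Figure D5:**
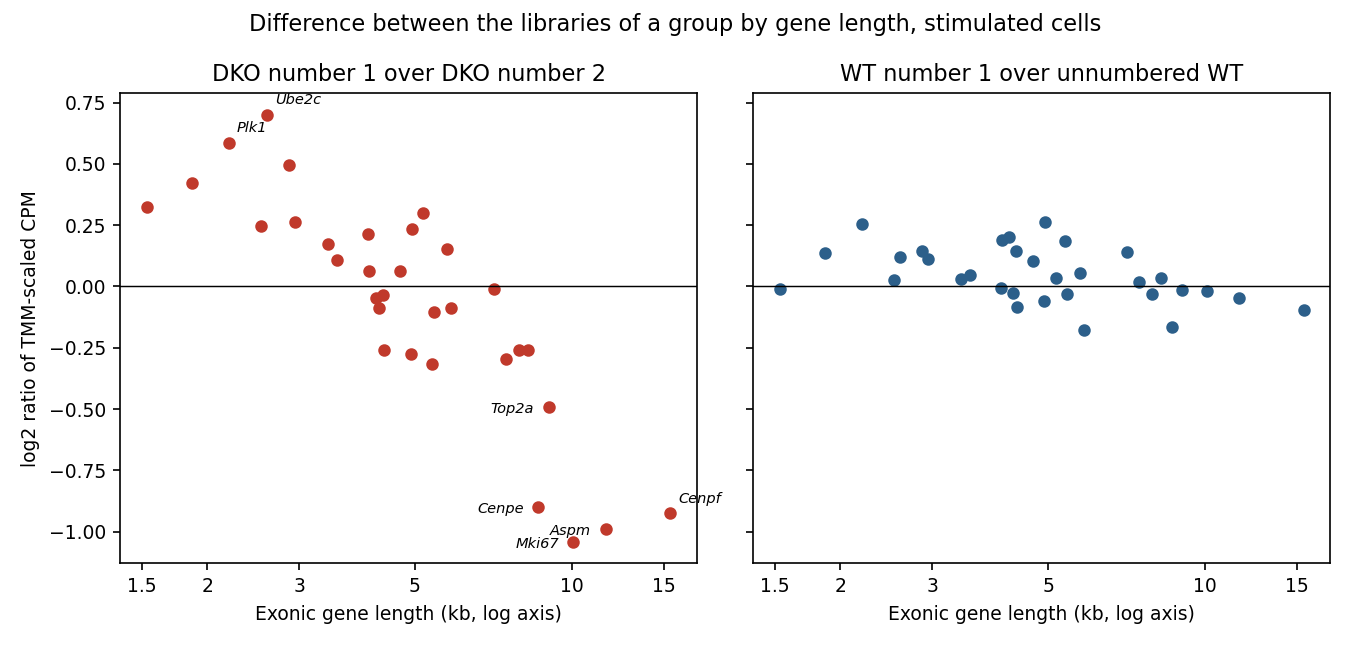
Log2 ratio of TMM-scaled CPM between the 2 libraries of a group against exonic gene length (log axis) for the 32 genes, in stimulated DKO cells on the left and stimulated WT cells on the right. On the left the points run from 0.70 for Ube2c to -1.04 for Mki67, while on the right they stay close to 0.

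What passes in stimulated cells depends on which DKO library is kept. Without DKO number 1, 7 members were lower (Cenpa, Plk1, Cenpe, Ube2c, Ccnb2, Aurkb and Cdc20), beside 12.1% of all genes. Without DKO number 2, 7 were lower (Cenpe, Mki67, Cenpf, Aspm, Cenpa, Kif23 and Prc1) and 4 higher (Cdca3, Cdk1, Nusap1 and Ube2c), beside 19.7% and 19.8% of all genes. Ube2c had -0.41 ± 0.13 in the first and 0.35 ± 0.12 in the second of these fits, and Cenpa -0.54 ± 0.12 and -0.58 ± 0.12 (edgeR adjusted p = 0.0029 and 0.000876). Cenpa and Cenpe were lower in both. Each such fit rests on 1 DKO library that is assumed to vary like the WT libraries. With the trend of each library with gene length taken out, Cenpa alone passed, with -0.49 (edgeR adjusted p = 0.0428), beside 16.6% of all genes in either direction.

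Whether the genotype effect itself differed between stimulated and untreated cells was tested as an interaction. All 32 terms were positive, that is, the estimated rise on stimulation was larger in DKO cells. None of them passed the threshold in edgeR, beside 0.133% of all genes that passed as higher. An unadjusted edgeR p under 0.05 was found for 7 of the 32, beside 1802 of the 15006 tested genes. The median term was 0.52 on the log2 scale, against 0.05 for all genes, and the largest were Plk1 with 1.28 ± 0.45 (edgeR adjusted p = 0.304), Ube2c with 1.24 ± 0.46 (0.337) and Cdca3 with 1.15 ± 0.43 (0.337). DESeq2 called none either. In the 8 male libraries 2 members passed, Kif20a with 0.98 (edgeR adjusted p = 0.0419) and Ccnb1 with 1.05 (edgeR adjusted p = 0.0459), beside 0.313% of all genes.

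Among regulators of the cycle, some differed between stimulated DKO and WT cells. Cdkn1a, which codes for the CDK inhibitor p21, had 29.2 and 17.4 CPM in stimulated DKO cells, against 1.44 and 2.21 CPM in stimulated WT cells, and 49.4, 38.5 and 31.1 CPM in untreated DKO cells, against 44.7, 53.9 and 43.6 CPM in untreated WT cells. The gene was thus near its WT level before stimulation and higher in both DKO libraries after it. Its log2 change was 3.62 ± 0.32 in stimulated cells (edgeR adjusted p = 0.00115), and the interaction was 3.93 ± 0.38 (edgeR adjusted p = 0.0025). The interaction stayed between 3.51 and 4.27 when any 1 library was left out and passed in all 10 such fits. The other tested CDK inhibitors, Cdkn1b (-0.67 ± 0.23), Cdkn2d (0.34 ± 0.25) and Cdkn2c (0.04 ± 0.17), did not pass.

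Psrc1 had 102 and 62.0 CPM in stimulated DKO cells, against 14.4 and 14.2 CPM in stimulated WT cells, a change of 2.47 ± 0.23 (edgeR adjusted p = 0.00115). Kif15 was lower, with 78.1 and 111 CPM, against 186 and 187 CPM (-1.02 ± 0.22, edgeR adjusted p = 0.0228), though not past the threshold without WT number 1 or without the unnumbered WT library (adjusted p = 0.0565 and 0.0757). Stmn1, a tubulin-binding protein, rose by 0.77 ± 0.19 (edgeR adjusted p = 0.0349) and Numa1 had -0.56 ± 0.17, so that 2 of 22 spindle genes rose and 1 fell. Mybl2, which codes for B-MYB, had 330 and 247 CPM in DKO cells, against 141 and 114 CPM in WT cells. It rose by 1.13 ± 0.20 (edgeR adjusted p = 0.012), but had an adjusted p of 0.144 without the unnumbered WT library. E2f6 rose by 0.72 ± 0.16 (edgeR adjusted p = 0.0254), and E2f7 (0.59 ± 0.19) and E2f1 (0.41 ± 0.18) did not pass, so that 2 of 18 genes of that list rose.

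One gene passed in each of 3 further lists, all higher: Cenpn (0.62 ± 0.16) of the kinetochore genes, Esco2 (0.66 ± 0.18) of the cohesion genes and Pbk (0.69 ± 0.16) of the regulators of mitotic entry and exit (edgeR adjusted p = 0.0399, 0.0463 and 0.0291). The genes next by p in those lists were Spc24 (0.51), Cenpu (0.46) and Oip5 (0.40), then Ncapg (-0.34), Ncaph2 (0.21) and Cdca5 (0.18), then Melk (0.59), Cdc25b (-0.39) and Haspin (0.42). No anaphase-promoting complex subunit passed, with Anapc11 (-0.42), Anapc1 (-0.44), Cdc26 (0.28) and Anapc13 (-0.32) first by p. Of the 40 replication genes none passed, 36 were positive with a median of 0.37, and Prim1 (0.59 ± 0.17, edgeR adjusted p = 0.0512), Ccne1 (0.59), Cdc45 (0.51) and Pcna (0.53) came closest.

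Levels of different genes were compared as CPM per kilobase of exonic length. Top2a had 36.2 ± 11.2 and Mki67 20.1 ± 7.24 CPM per kb in untreated DKO cells (SD, n = 3), against 44.0 ± 14.5 and 33.1 ± 9.17 in untreated WT cells (n = 3), and these genes took the first 2 places in all 4 groups, followed by Ccna2. Mki67 stood first after stimulation, with 121 ± 54.3 in DKO cells and 156 ± 0.351 CPM per kb in WT cells (SD, n = 2 each), against 118 ± 23.1 and 113 ± 0.235 for Top2a. Top2a and Mki67 together made up 30.1% to 41.7% of the summed CPM of the 32 genes in the 10 libraries. Cenpf was last in untreated cells, with 1.66 ± 0.519 in DKO and 2.61 ± 1.02 CPM per kb in WT cells. It was also last in stimulated DKO cells, with 8.08 ± 3.24, while Ttk was last in stimulated WT cells, with 10.1 ± 0.237. Neighbours in this order mostly differ by less than their spread. Plk1 stood at place 22 in untreated DKO cells and at place 11 in untreated WT cells.

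The 2 additional WT libraries of untreated cells stood apart from the numbered ones. Summed myeloid markers were 195 and 242 plain CPM, against 66.8 to 77.6 in the numbered untreated WT libraries, and summed CDK inhibitors 484 and 347, against 165 to 182; their part in the values that follow was not tested. Their 32 genes took 0.273% and 0.351% of counts, against 0.143% to 0.281% in the numbered untreated WT libraries. Their counts come from a table with coordinates of GRCm38, so levels across tables are set side by side with caution. In 12 members both additional libraries lay above all numbered untreated WT libraries, as in Cenpa with 92.4 and 86.4 plain CPM. In 9 neither did, as in Plk1 with 12.9 and 20.9 plain CPM. The share of all genes that lay above or within the range of the numbered untreated WT libraries was not computed. Counted as WT in the test, they left none of the 32 members past the threshold in edgeR, beside 2.28% of all genes in either direction, with all 8 changes above still negative.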

How the data were processed

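The 12 libraries hold poly(A) RNA of B cells from mouse spleen. What the authors deposited and was used is raw counts per gene, in 3 tables. Per the submitters' processing notes, FastQC 0.10.1, cutadapt 1.9.1, HISAT2 2.2.1, HTSeq 0.6.1 and GRCm39 were used. No source used here gives the strand setting, and counts of overlapping genes are uncertain. Deposited columns of FPKM (12 in all) were not used. Of the stimulated WT columns 1 carries a number that the labels do not give to this group, and it is called the unnumbered WT library.

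Members and lists were chosen with earlier results of these data known, so counts of members are descriptions beside those of all genes. The rule for naming took every member past the threshold up to 10, otherwise the 10 with the smallest p, and the 4 genes of each other list with the smallest p for DKO against WT; for other comparisons these lists were not named.

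Tests used edgeR 4.0.16 under R 4.3.3 (two-sided quasi-likelihood test, TMM scaling, filterByExpr set to 10 counts at least and 15 in total), with Benjamini-Hochberg adjustment over all tested genes and a threshold of 0.05. DKO was set against WT in separate fits of the 6 untreated and the 4 stimulated libraries; interaction and stimulation were tested in 1 fit of 10 libraries. Standard errors are the absolute log2 change over the square root of F. Per-library levels are on the scale of that joint fit. Log2 ratios by gene length use the separate fit of stimulated or of untreated cells and a pseudocount of 0.5 CPM. The pipeline was tested on simulated counts. DESeq2 1.42.0 was an alternative. Fits of male libraries for the interaction and for stimulation, and the fit with a length trend, were added after the data were seen. Promoter sequences are RefSeq windows on GRCm38.p6. Of the red cell precursor markers, only those that could be tested are reported here.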

Additional observations from a re-analysis of the deposited data

Results flagged for a closer look

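Cdkn1a was singled out because its change with genotype differed between stimulated and untreated cells: the interaction was 3.93 on the log2 scale (edgeR adjusted p = 0.0025). DKO cells had 29.2 and 17.4 CPM after stimulation, against 1.44 and 2.21 CPM in WT cells. On stimulation the gene fell by 0.77 ± 0.24 in DKO cells and by 4.70 ± 0.31 in WT cells (edgeR adjusted p = 0.0253 and 4.12e-07). The cause was not tested.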

How the results depend on the processing

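In untreated cells, where 8 members fell, beside 19.5% of all genes in either direction, 0 passed with the replicate number as a block (5.8% of all genes) and 0 once the additional libraries joined the WT group (2.28%). DESeq2 called 13 (21.2%), no filter on low counts 23 (12.7%), a threshold of 0.10 called 14 (28.7%), a term for sex 28 (32.4%) and the male libraries 27 (24.6%), all lower. Leaving out 1 library gave 0 to 22, with 6.67% to 19.9% of all genes. Deviations of same-numbered untreated DKO and WT libraries from their group means had correlations of -0.402, -0.411 and 0.176. DKO number 1 and WT number 2, the libraries that read as female, had 0.493. These values cannot decide whether the numbers pair the samples. Deviations from a mean of 3 libraries depend on each other, and they hold the difference of the libraries that read as female. Stimulated cells had 0 members past the threshold, beside 11.3% of all genes, and 1 with the plain library total (10%), 2 with DESeq2 (13.7%), 3 without a filter (11.2%), 2 at 0.10 (20.7%), 1 with the length trend taken out (16.6%), and 0 to 11 when 1 library was left out. For the interaction 0 passed (0.14% of all genes), against 11 without a filter (1.83%), 2 in male libraries (0.413%), and, in these, 4 without stimulated DKO number 1 (1.57%) and 19 without number 2 (17.4%), and 0 to 2 when 1 library was left out. Stimulation raised 26 to 32 members in WT cells and 32 in DKO cells under every alternative run. The causes of these differences were not tested. Of 562 values of named members past the threshold under alternatives, 513 kept their call and 49 lost it, and none reversed. All 49 were calls of DKO over WT in untreated cells. For stimulation only the 10 members with the smallest p in each genotype were counted, and none of these lost its call. Of all 32 members, 26 passed in WT cells with the additional libraries counted as WT (16% of all genes). Without stimulated WT number 1, 30 passed (27.5% of all genes). Plk1 kept its call in 15 alternatives and lost it in 4, and Cdc20, Foxm1 and Prc1 each kept it in 12 and lost it in 7. Members not called, and called members outside the named ones, were left out of the 562 values. For DKO over WT in untreated cells, Ttk and Bub1 turned positive without WT library 1 (0.0735 and 0.0071) or DKO library 1 (0.0616 and 0.102). Counts of 15090953 to 21731893 per library, and 2 or 3 libraries a group, limit what small changes can be seen.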
